A study of Mus musculus with 2 samples.

Results

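Solute carriers are the membrane proteins that move nutrients, ions, metals and metabolites across the surface of a cell and between its compartments, and most carry a gene symbol beginning with Slc. The genes described here are those expressed solute carriers of mouse CD4+ T cells. They were taken as every probe set paired with exactly 1 symbol starting with Slc and with a signal above 200 on at least 1 of the study's arrays, leaving out Slc2a1, Slc2a3, Slc16a1, Slc16a3 and Slc29a1. This rule kept 99 of 45101 probe sets, which belong to 75 of the 357 other Slc symbols on the array. The members were chosen by their signals on both arrays, so their being expressed is not a finding. Both groups came from DEREG mice, a strain in which the Foxp3 promoter drives green fluorescent protein (GFP). After depletion of other cells, the CD4+ fraction was divided by flow sorting into CD4+GFP+FoxP3+ cells, here GFP-positive, and CD4+GFPnegFoxP3neg cells, here GFP-negative. Total RNA of each population was measured on 1 Affymetrix mouse genome array. For the mice, the labels give no age, number, organ or treatment.

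T cells need imported amino acids, phosphate and metals to grow and divide. Some amino acid carriers of the Slc7 family, Slc7a6 among them, work as heterodimers with the CD98 heavy chain, encoded by Slc3a2, whereas cationic carriers such as Slc7a1 do not pair with it. Amino acids inside the cell are sensed by the kinase complex mTORC1. Zinc enters the cytosol through carriers of the Slc39 (ZIP) family and leaves it through the Slc30 (ZnT) family. The Slc25 family sits mainly in the inner mitochondrial membrane, and the Slc35 family feeds the Golgi apparatus and endoplasmic reticulum with nucleotide sugars and related donors.

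Promoter sequences of 5 genes on which the results turn are shown here: Slc20a1 and Slc7a1, with lower signals in GFP-positive cells, and Slc35e3, Slc39a9 and Slc7a6, with higher ones. Each is the 250 bases before the first listed transcription start in RefSeq (build GRCm38.p6), read 5′ to 3′ on the gene's strand. The windows are chr2:129198523-129198772 on the plus strand for Slc20a1, chr5:148399905-148400154 on the minus strand for Slc7a1, chr10:117746359-117746608 on the minus strand for Slc35e3, chr12:80643965-80644214 on the plus strand for Slc39a9 and chr8:106168604-106168853 on the plus strand for Slc7a6. Capitals mark the ETS core CCGGAAG, found in 2 of them.
Slc20a1: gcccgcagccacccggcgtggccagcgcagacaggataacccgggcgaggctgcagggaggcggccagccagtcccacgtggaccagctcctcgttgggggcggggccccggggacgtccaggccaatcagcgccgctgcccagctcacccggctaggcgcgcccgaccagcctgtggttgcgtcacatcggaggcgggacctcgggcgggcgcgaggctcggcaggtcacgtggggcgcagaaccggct
Slc7a1: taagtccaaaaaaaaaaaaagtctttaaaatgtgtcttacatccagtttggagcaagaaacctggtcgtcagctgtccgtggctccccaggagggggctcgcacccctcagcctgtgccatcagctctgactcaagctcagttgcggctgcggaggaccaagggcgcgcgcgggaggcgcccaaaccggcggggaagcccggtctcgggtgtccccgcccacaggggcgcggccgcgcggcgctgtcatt
Slc35e3: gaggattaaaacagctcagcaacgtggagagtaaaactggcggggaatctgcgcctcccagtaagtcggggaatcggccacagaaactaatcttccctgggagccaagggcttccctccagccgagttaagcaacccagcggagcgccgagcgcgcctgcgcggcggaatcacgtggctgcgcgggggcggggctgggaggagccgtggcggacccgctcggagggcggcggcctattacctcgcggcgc
Slc39a9: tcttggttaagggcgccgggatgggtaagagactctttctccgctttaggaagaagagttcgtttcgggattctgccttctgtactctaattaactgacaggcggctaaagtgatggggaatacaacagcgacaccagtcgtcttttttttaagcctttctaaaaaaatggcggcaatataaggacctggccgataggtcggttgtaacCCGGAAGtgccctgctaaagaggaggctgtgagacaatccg
Slc7a6: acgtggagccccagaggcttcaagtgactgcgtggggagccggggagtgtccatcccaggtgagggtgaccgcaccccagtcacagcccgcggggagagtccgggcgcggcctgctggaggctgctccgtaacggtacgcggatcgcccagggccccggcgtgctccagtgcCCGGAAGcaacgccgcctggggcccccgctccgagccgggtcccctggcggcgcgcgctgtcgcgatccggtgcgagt
These windows were searched on both strands for GTAAACA, the core bound by forkhead factors such as Foxp3, for CCGGAAG, a core bound by ETS factors, and for TGATGNAA, found in amino acid response elements. No 2 matches overlapped in the windows shown. The ETS core lay 41 to 35 bases before the start in Slc39a9 and 78 to 72 bases before it in Slc7a6, and the other windows shown held no match. The windows of Slc22a5 and Slc38a9, also with higher signals, held none either, and no pattern is read from the matches. Promoters were listed for 56 of the 75 genes. The ETS core was present in 14 of these 56 (25%), compared with 17.5% of the 4823 genes with a signal above 200 and a listed promoter, and with 7.05% of all 27025 listed promoters. GTAAACA was present in 0 of the 56, against 2.16% of expressed genes and 3.09% of all, and TGATGNAA in 2 of 56 (3.57%), Slc50a1 and Slc9a9, against 1.82% and 3.53%. A match describes letters only, and no match says only that these letters are not in this window.

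Both arrays had the same 2% trimmed mean of 150.0, and their median signals were 46.9 (GFP-positive) and 40.8 (GFP-negative). Foxp3 gave 504 and 173, the direction of the labels. Of the CD4+ T cell markers, 6 of 6 measured were above this floor on both arrays, with summed signals of 11693 and 12948. Cd4 (256.5 and 415), Cd3e (541 and 862) and Cd28 (937 and 1430) were 1.62-, 1.59- and 1.53-fold lower in GFP-positive cells. Cd3g and Cd3d were 1.13- and 1.01-fold lower and Cd5 1.15-fold higher. The floor is the 90th percentile of genes restricted to other tissues. B cell markers were above it in 2 of 7 cases, Cd22 (98.3 and 235) and Cd79b (222 and 70.8), with sums of 466 and 467, and the part of B cell RNA in the results was not tested. Myeloid markers passed the floor on an array in 3 of 8 cases (sums of 356 and 401), CD8 and NK markers in 2 of 4 (263 and 240.3) and erythroid and platelet markers in 2 of 6 (168 and 256). Klrd1 (148.5 and 103.5), Cd8b1 (100.4 and 115.2) and Adgre1 (94.3 and 79.1) were above the floor on both arrays, as was Itga2b. Csf1r passed it only on the GFP-positive array (83.9), and Fcgr3 (125.8) and Pf4 (75.6) only on the GFP-negative array. Other listed markers were close to 0 on both arrays, such as Ncr1 (1.7 and 5.9), Pax5 (6.6 and 2.8) and Cd14 (6.2 and 4.1). The part of RNA from these other cells in the results was not tested either. In sorted bulk cells, fewer cells expressing a gene and less RNA per cell cannot be told apart.

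Differences between GFP-positive and GFP-negative cells in the 75 solute carrier genes were small. With each gene represented by its brightest member probe set, 0 were 2-fold higher and 0 were 2-fold lower. GFP-positive cells had higher signals for 31 genes (41.3%, against 43.1% of all genes past the same threshold) and lower signals for 44. At least 1.5-fold higher were 6 genes (8%): the orphan carrier gene Slc35e3, the zinc carrier gene Slc39a9, the amino acid carrier genes Slc7a6 and Slc38a9, the carnitine importer gene Slc22a5 and the nucleobase carrier gene Slc43a3. At least 1.5-fold lower were 5 genes (6.67%): the taurine importer gene Slc6a6, the phosphate importer gene Slc20a1, the zinc importer gene Slc39a6, the organic anion carrier gene Slco3a1 and the arginine and lysine importer gene Slc7a1. With 1 array per group there is no replicate, so no test was run, and every difference is between these 2 arrays.

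Over all 5840 genes with 1 symbol and a signal above 200 on an array, 1.49% were at least 2-fold higher and 1.47% at least 2-fold lower in GFP-positive cells. Shares of 5.89% and 7.14% passed 1.5-fold in these directions. The Slc shares at 1.5-fold are therefore near the background, and nothing particular to solute carriers is read from them. When all probe sets of each gene were averaged, dim ones included, 3 Slc genes were at least 1.5-fold higher and 2 lower. Of the 11 genes named above, 4 stayed past 1.5-fold (Slc35e3, Slc43a3, Slc20a1 and Slco3a1), and Slc22a5, Slc38a9, Slc39a6, Slc39a9, Slc6a6, Slc7a1 and Slc7a6 did not. Slc35e3 and Slc43a3 have no other probe set, so averaging could not move them. Probe sets below the floor on both arrays enter the mean as no difference and shrink it, as for Slc22a5, Slc39a6, Slc39a9, Slc6a6 and Slc7a1. In Slc22a5 and Slc39a9 all other probe sets were of this kind. Slc39a6, Slc6a6 and Slc7a1 also had a further probe set above the floor with a smaller difference (-0.45, -0.25 and -0.05). A loss therefore does not by itself mean that another probe set disagreed. The averaged direction matched that of the brightest probe set in 64 of the 75 genes. It was the opposite in Slc10a7, Slc14a1, Slc25a12, Slc25a5, Slc25a51, Slc35a3, Slc38a1, Slc38a10, Slc44a2, Slc48a1 and Slc9a9. The median log2 difference, GFP-positive minus GFP-negative, was -0.08 over the 75 genes (quartiles -0.31 and 0.25) and -0.05 over all 5840 (-0.28 and 0.16). Lower signals in GFP-positive cells were found for 58.7% of Slc genes and 56.9% of all genes. The extremes of the Slc genes were -0.76 and 0.70 and those of all genes -2.54 and 3.98, but extremes widen with the number of genes. Within 1.5-fold lay 85.3% of Slc genes and 87.0% of all genes.

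**Figure D1:**
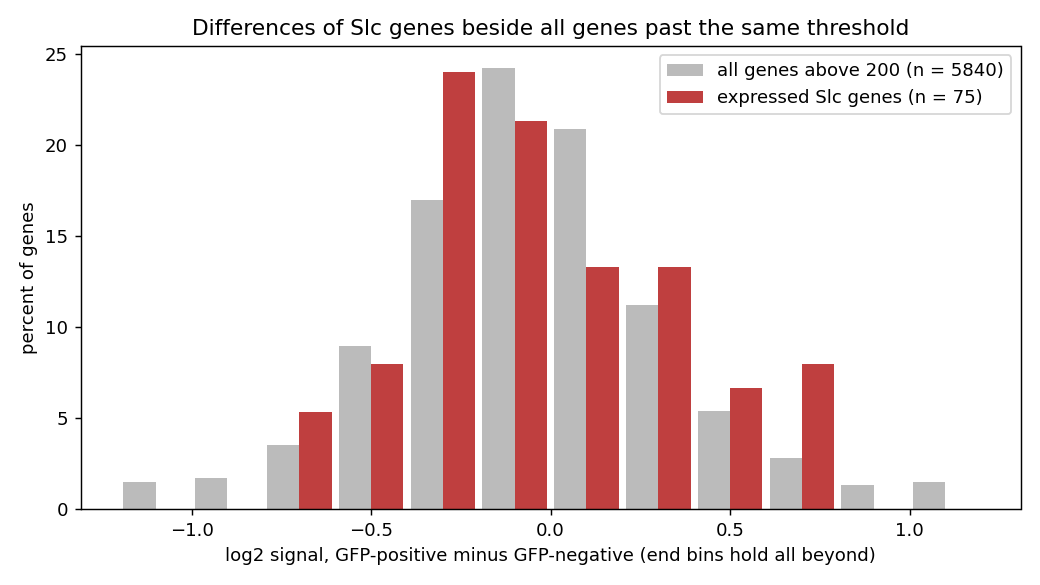
Distribution of log2 differences (x axis, GFP-positive minus GFP-negative array) as percent of genes (y axis) for the 75 expressed Slc genes in red and all 5840 genes past the same threshold in grey. The end bins hold all genes beyond them, and no Slc gene lies there.

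Scatter within these arrays was measured from genes with several probe sets, since the probe sets of a gene measure the same sample. Across 4263 probe sets of 1767 genes above 200, the log2 differences within a gene had a pooled standard deviation of 0.36. Only Slc6a6 and Slc20a1 differed by more than 2 such standard deviations (0.722), or 2.67% of Slc genes against 7.76% of all genes. Slc39a6 (-0.716) and Slco3a1 (-0.710) fell just short of it, so the Slc share hangs on near ties. Variation from mouse to mouse or from sort to sort is not part of this value. The direction went with signal strength in Slc genes and in all genes. Of the 39 Slc genes with a brighter signal of 200 to 400, 19 were higher and 20 lower, and 48.3% of the 2145 genes in that range were higher. Of the 36 Slc genes with a brighter signal above 400, 24 were lower (66.7%), as were 2213 of all 3695 such genes (59.9%). All 6 genes at least 1.5-fold higher had a brighter signal of 200 to 400, or 15.4% of Slc genes there against 10.5% of all genes. At least 1.5-fold lower were 2.56% of Slc genes at 200 to 400, 5.26% at 400 to 800 and 17.6% above 800. Over all genes these shares were 10.2%, 7.20% and 3.87%. The Slc shares come from 1, 1 and 3 genes, too few to read. Of the 6 higher genes, Slc35e3, Slc39a9, Slc38a9 and Slc43a3 passed the threshold only on the GFP-positive array, and 2 genes remained when 200 was required on both arrays. Among the 1.5-fold lower genes Slc6a6 passed it only on the GFP-negative array. A gene that passes on 1 array alone had to be brighter there, so nothing is read from the counts in that range. The same holds for the direction of every gene given below whose brightest probe set exceeds 200 on only 1 array.

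**Figure D2:**
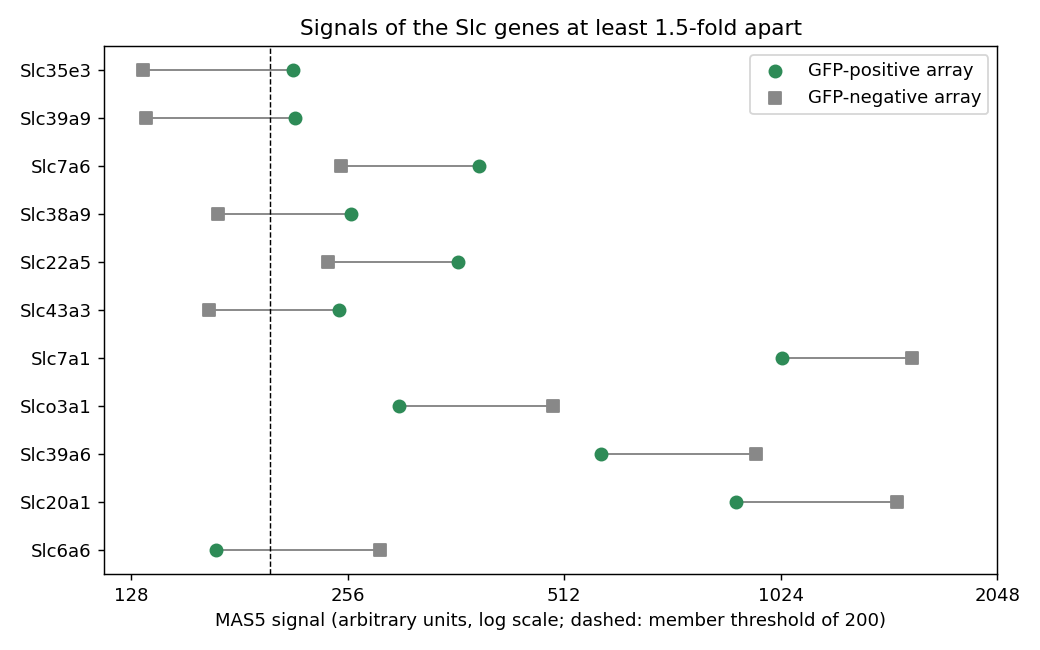
MAS5 signals (x axis, log scale, arbitrary units) of the 11 genes at least 1.5-fold apart, with the GFP-positive array as circles and the GFP-negative array as squares. The 6 genes higher in GFP-positive cells have both signals below 400, and 3 of the 5 lower ones exceed 400 on both arrays; the dashed line marks the threshold of 200.

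Carriers of amino acids and related compounds passed the threshold for 12 of 68 genes on the array, 3 of them higher and 9 lower in GFP-positive cells, with a median log2 difference of -0.21, which became -0.0042 when all probe sets of each gene were averaged. Slc6a6, which imports taurine, had a signal of 168 in GFP-positive cells against 284 in the other population, 1.69-fold lower. Its other probe set above the floor was lower too, at 86.1 and 102, a log2 difference of -0.25. The mean over all its probe sets was also -0.25, under 1.5-fold. Slc7a1 encodes CAT1, the main importer of arginine and lysine, and gave 1029 and 1556, 1.51-fold lower. A further Slc7a1 probe set just under the threshold showed little difference (189.6 and 197), and the brightest came to under 1.5-fold after quantile normalization or loess. Slc7a6 encodes y+LAT2, which exchanges cationic for neutral amino acids, and went the other way with 389 and 251, 1.55-fold higher. Its other member probe set gave 218 and 195, a log2 difference of 0.16, and the mean of both was under 1.5-fold. Slc3a2, the CD98 heavy chain with which y+LAT2 pairs, had nearly equal signals of 615 and 617.

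Importers of glutamine and other neutral amino acids differed by less than 1.5-fold on their brightest probe sets. Slc1a5, which encodes the exchanger ASCT2, had signals of 397 and 492 (1.24-fold lower), but a dimmer probe set was higher (97.1 and 78.7) and the mean of all was -0.0035. Slc38a2, a sodium-coupled importer, gave 1143 and 1429 (1.25-fold lower) with its other member probe set at 537 and 605. Slc38a1, a close relative of Slc38a2, gave 971 and 1015 on the brightest and 618 and 589 on the other member probe set, so its direction is not settled. Slc43a2, a carrier of large neutral amino acids, was 1.34-fold lower (285 and 382), and Slc38a6 1.34-fold lower (169.6 and 227). Slc38a10 gave 617 and 667, with probe sets of both directions.

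Besides Slc7a6, the amino acid carrier genes with higher signals in GFP-positive cells were Slc38a9 and Slc36a4. Slc38a9, the lysosomal arginine sensor that signals to mTORC1, gave 259 and 169, 1.53-fold higher. Of 4 further Slc38a9 probe sets above the floor on both arrays, all under 200, a pair was lower (121 and 199.9, and 75.4 and 109.7) and a pair higher (102 and 76.7, and 173 and 133). The difference of Slc38a9 therefore rests on 1 probe set. Slc36a4, a carrier of proline and tryptophan, was 1.37-fold higher with 276 and 201.

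**Figure D3:**
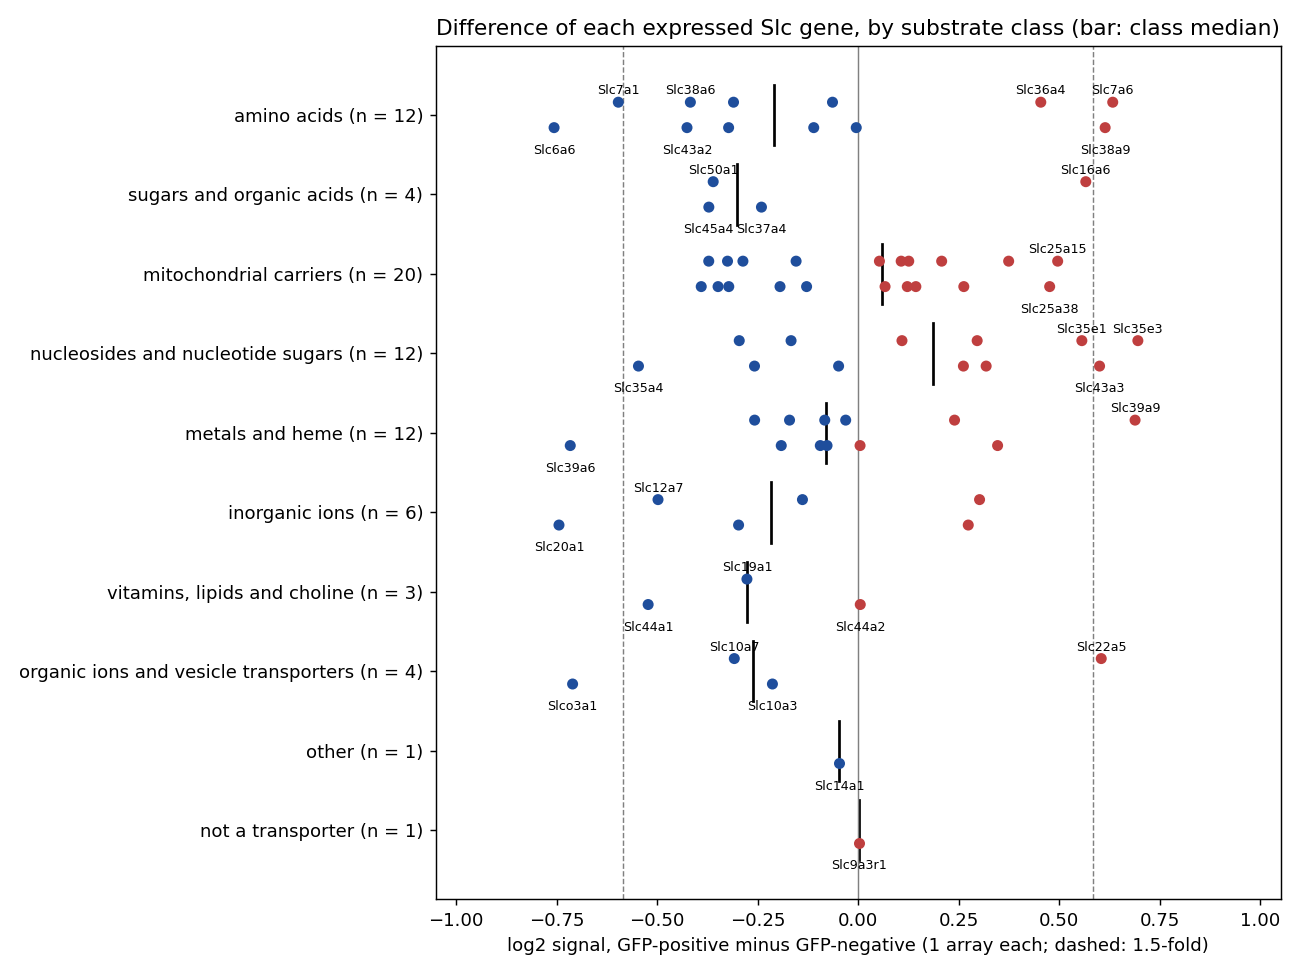
Log2 difference between the arrays (x axis, GFP-positive minus GFP-negative) of each of the 75 genes by substrate class (y axis), red where higher and blue where lower in GFP-positive cells; black bars are class medians and dashed lines 1.5-fold. Amino acid carriers lie on both sides with a median of -0.21, and mitochondrial carriers all lie within 1.5-fold.

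Carriers of inorganic ions passed the signal threshold for 6 of 48 genes, with 2 higher, 4 lower and a median of -0.22. Slc20a1 encodes PiT1, which imports phosphate with sodium, and had signals of 886 and 1484, 1.67-fold lower in GFP-positive cells. A dimmer Slc20a1 probe set had the same direction (71.3 and 151, a log2 difference of -1.09). Slc12a7, which encodes the potassium and chloride exporter KCC4, was 1.41-fold lower with 838 and 1183. Slc12a2, the sodium, potassium and chloride importer NKCC1 with the opposite effect on cell chloride, gave 241 and 199.7, 1.21-fold higher, with a dimmer probe set at 129 and 113. Slc4a2, the chloride and bicarbonate exchanger AE2, was 1.23-fold higher (213 and 172). Slc9a9, an endosomal sodium and proton exchanger, was 1.23-fold lower (263 and 324), with dimmer probe sets in the opposite direction (79.4 and 29.5, and 70.5 and 44.6). The sulfate carrier gene Slc26a2 was lower on both member probe sets, at 214 and 236 and at 149 and 207. A dimmer Slc26a2 probe set was 1.51-fold lower (123 and 186).

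Carriers of metals and heme passed the signal threshold for 12 of 34 genes, 4 of them higher and 8 lower, with a median of -0.08. The zinc importers went both ways. Slc39a6, which encodes the plasma membrane importer ZIP6, had signals of 575 and 945, 1.64-fold lower, and a dimmer probe set was lower too (105 and 144), while the mean of all its probe sets was -0.29, under 1.5-fold. Slc39a10, the relative with which ZIP6 associates, was nearly equal at 339 and 357. Slc39a4 gave 246 and 281. Slc39a9, which encodes ZIP9, was 1.61-fold higher, at 216 and 134, and its 2 other probe sets were below the floor on both arrays, so the mean of all 3 was 0.23. Slc39a7, which releases zinc from the endoplasmic reticulum, gave 356 and 302, 1.18-fold higher.

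The zinc exporters differed less. Slc30a1, the exporter at the plasma membrane, had signals of 339 and 362. Slc30a5 and Slc30a6, which form a dimer that loads zinc into the secretory pathway, differed in direction, at 527 and 415 (1.27-fold higher) and 555 and 625 (1.13-fold lower). Slc30a7, also of the secretory pathway, gave 412 and 410.5 on the brighter and 364 and 292 on the other member probe set. Slc30a9 was lower (239.9 and 287). The magnesium carrier gene Slc41a1 and the heme carrier gene Slc48a1 were within 1.06-fold on their brightest probe sets, and a dimmer Slc48a1 probe set was higher (113 and 92.4).

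The class called mitochondrial carriers was set by symbol (the Slc25 family and Slc8b1), without regard to where each protein sits. It passed the signal threshold for 20 of 45 genes, with 11 higher, 9 lower and a median of 0.06, and 0 of these genes passed 1.5-fold in either direction. With 200 required on both arrays, which kept 16 of them, the median was -0.14. Slc25a5 and Slc25a4, which exchange ADP for ATP, had signals of 12919 and 12456 and of 2774 and 2549. Slc25a3, which imports phosphate for ATP synthesis, gave 7073 and 6753. These carriers differed by at most 1.09-fold on their brightest probe sets, while dimmer ones gave 89.4 and 117 for Slc25a5 and 118 and 90.9 for Slc25a3. Furthest towards GFP-positive cells lay the ornithine carrier gene Slc25a15 (254 and 179.9, 1.41-fold), the glycine carrier gene Slc25a38, which serves heme synthesis (229.5 and 165, 1.39-fold), and Slc25a53 (233 and 179). All of these passed 200 only on the GFP-positive array, so they had to be brighter there and nothing is read from their direction. The other Slc25a15 probe set was below the floor on both arrays.

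Slc25a39 and Slc25a40, the pair that imports glutathione into mitochondria, were both lower in GFP-positive cells. Slc25a39 gave 1428 and 1848 (1.29-fold lower), with its other member probe set at 365 and 439. A dimmer Slc25a39 probe set was 1.88-fold lower (87.9 and 165). Slc25a40 gave 380.4 and 499 (1.31-fold lower). Slc25a12, which exchanges aspartate for glutamate, was 1.27-fold lower (636 and 809.8). Its dimmer probe sets went both ways (157 and 169.5, and 152 and 102), and the mean of all was 0.04, so its direction is not settled. The folate and FAD carrier gene Slc25a32 was 1.25-fold lower (345 and 432). Slc25a20 imports fatty acids as acylcarnitines and gave 731 and 913 on 1 probe set but 530.1 and 524 on the other. Slc25a51, which imports NAD, had the widest disagreement: the brighter member probe set gave 477 and 582, the other member 239 and 107, log2 differences of -0.29 and 1.16. The second of these is the 1 member probe set of 99 past 2-fold (1.01%, against 1.62% of all probe sets above 200 in that direction). A dimmer Slc25a51 probe set, under the threshold, gave 181 and 195, a log2 difference of -0.11.

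The remaining members of the Slc25 family were Slc25a11, Slc25a14, Slc25a17, Slc25a28, Slc25a30, Slc25a36, Slc25a45 and Slc25a46, with log2 differences from -0.19 to 0.26 on the brightest. A dimmer Slc25a30 probe set gave 196 and 78.1, 2.51-fold higher. Among them, Slc25a28 encodes mitoferrin-2, which imports iron, and gave 525 and 574. Slc25a46, an outer membrane protein, gave 867 and 723 on the brighter and 326 and 328 on the other member probe set.

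**Figure D4:**
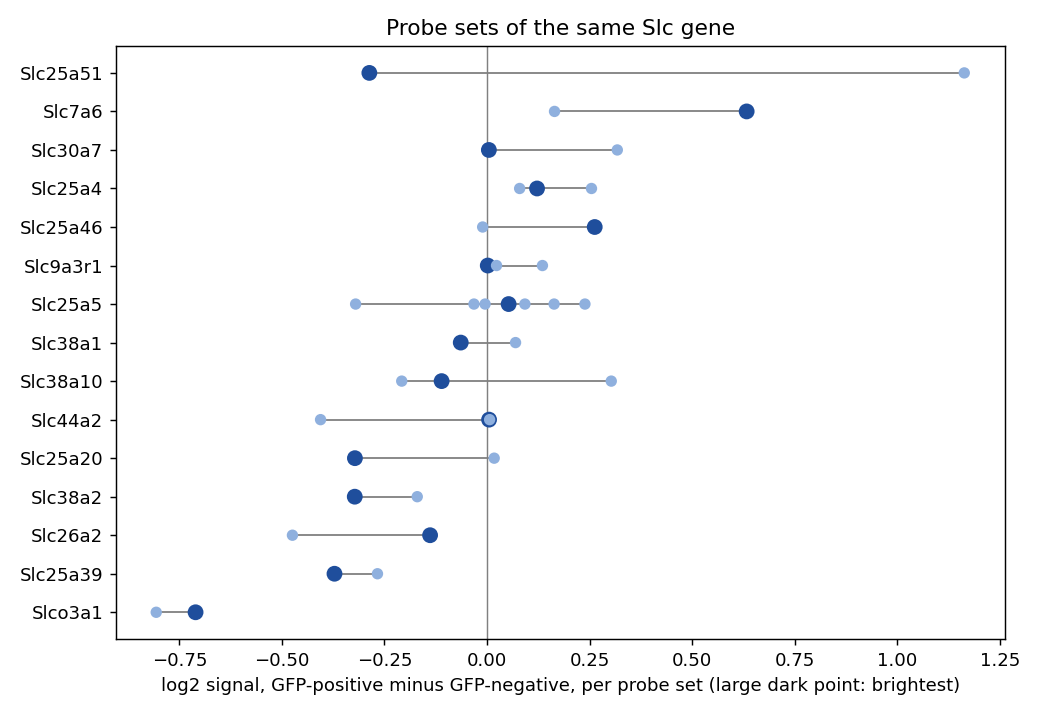
Log2 difference (x axis, GFP-positive minus GFP-negative) of every member probe set of the 15 genes with more than 1 (y axis); the large dark point is the brightest. In 8 genes the probe sets lie on the same side of 0 and in 7 on both sides, and Slc25a51 spans from -0.29 to 1.16.

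Probe sets of the same gene put a bound on how far single differences can be read. Of the 75 genes, 60 had 1 member probe set and 15 had several, and in 8 of the 15 all had the same direction. Of the 2 genes past 1.5-fold with several, Slc7a6 is given with the amino acid carriers, and Slco3a1, a carrier of organic anions such as prostaglandins, gave 302 and 494 on the brightest and 264 and 462 on the other member probe set, log2 differences of -0.71 and -0.81. Within the 15 genes the standard deviation between probe sets was 0.28 log2.

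Carriers of nucleosides, nucleobases and nucleotide sugars passed the signal threshold for 12 of 32 genes, 7 of them higher and 5 lower, with a median of 0.19, which became -0.05 for the 7 with a signal above 200 on both arrays. Slc35e3 was the gene with the largest difference in favour of GFP-positive cells, 215 and 133 or 1.62-fold, and its relative Slc35e1 was 1.47-fold higher (237 and 161), with a dimmer probe set also higher (138 and 88.3). The substrates of neither are well established. Slc43a3, a purine nucleobase carrier, gave 249 and 164, 1.52-fold higher, but under 1.5-fold after quantile normalization. The nucleoside carrier genes Slc29a3, of the lysosome, and Slc29a4 were higher as well on their brightest probe sets (249.8 and 204, and 232 and 194). A dimmer Slc29a3 probe set was nearly equal (77.8 and 75.6). Slc29a4 passed 200 only on the GFP-positive array, and its other probe set was below the floor on both (9.7 and 5.5). Slc35a1, which supplies CMP-sialic acid, had signals of 636 and 714, Slc35a3, which supplies UDP-N-acetylglucosamine, 375 and 388, Slc35b1, which exchanges ATP for ADP at the reticulum, 824 and 1011, and Slc35b3, which supplies the sulfate donor PAPS, 1516 and 1813. Slc35a4 was 1.46-fold lower (181 and 264), and a second probe set just under the threshold had the same direction (145 and 199.6). Slc35d2 (556 and 516) and Slc35g1 (431 and 345) were higher.

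Sugar and organic acid carriers passed the signal threshold for 4 of 46 genes. Slc16a6, which carries ketone bodies, was 1.48-fold higher in GFP-positive cells, at 360.3 and 243, whereas the other 3 were lower: Slc45a4 (192 and 249), Slc50a1, a sugar carrier (546 and 701), and Slc37a4, which moves glucose 6-phosphate into the reticulum (316 and 373). Carriers of organic ions passed the signal threshold for 4 of 55 genes. Slc22a5 encodes OCTN2, which imports carnitine, and gave 365 and 240.1, 1.52-fold higher, while Slc10a7 (341 and 422) and Slc10a3 (289.9 and 336) were lower besides Slco3a1. A dimmer Slc10a7 probe set had the opposite direction (131 and 44.7, at least 1.95-fold higher), and the mean of all was 0.16. Carriers of vitamins, lipids and choline passed the signal threshold for 3 of 21 genes. The choline carrier genes Slc44a1 and Slc44a2 gave 229 and 328 (1.44-fold lower) and 3054 and 3043, with a second Slc44a2 member probe set lower (265 and 351, a log2 difference of -0.41). The mean of all Slc44a1 probe sets was -0.13, the others being below the floor on both arrays. The folate importer gene Slc19a1 gave 307 and 372 (1.21-fold lower), and a dimmer probe set was 1.45-fold lower (82.3 and 119.6). The urea carrier gene Slc14a1 gave 199 and 206 on the member probe set but 126 and 67.3 on a dimmer one, and the mean of all was 0.43. Slc9a3r1, a scaffold protein gene that encodes no carrier, gave 1843 and 1840.3.

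Members just inside the threshold were Slc25a17 (200.4 and 186), a probe set of Slc44a2 (204 and 203), Slc14a1 and a probe set of Slc26a2. Just outside were probe sets of Slc38a9 (121 and 199.9), Slc35a4 (145 and 199.6), Slco4a1 (183 and 198) and Slc26a6 (133 and 198). Of the 357 Slc symbols, a further 91 had a probe set above the floor but none above 200, and 191 had none above the floor. The leucine carrier gene Slc7a5 and the cystine importer gene Slc7a11, named here after their values were seen, had signals of 38.8 and 7.0 and of 65.9 and 41.7, below the floor.

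Genes that work with these carriers were followed on a list of 41, of which 37 had a probe set with 1 symbol and 32 were above the floor. In GFP-positive cells 12 were higher and 20 lower, and their median log2 difference was -0.08, beside 48.7% higher, 51.2% lower and a median of -0.01 over all 9966 genes above the floor. At least 2-fold higher was 1 gene and at least 2-fold lower 1, against 1.63% of all genes in either direction. Rptor, the mTORC1 scaffold subunit, gave 55.7 and 196, at least 2.90-fold lower because the GFP-positive signal was below the floor. Rragd, a GTPase that binds mTORC1 at the lysosome, gave 137 and 53.8, at least 2.04-fold higher. Mtor, the kinase itself, gave 486 and 525 on the brightest probe set, while its dimmer probe sets were higher (147.7 and 57.4, at least 2.19-fold, and a second at 79.9, its other signal being under the floor). The other sensing genes Rragc (905 and 947) and Lamtor1 (2358 and 2438) were nearly equal on their brightest probe sets. Each of Rptor and Rragd had 1 probe set above the floor.

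Among the other partners, Xpr1, which exports phosphate, gave 202 and 327, 1.62-fold lower, the same direction as Slc20a1. Its further probe sets above the floor went both ways (130.2 and 232, 134 and 133, and 89.8 and 63.0). Oxsr1, a kinase that regulates chloride cotransporters, was 1.89-fold higher (159.9 and 84.4), while Wnk1 upstream of it gave 2342 and 2538 on 1 probe set, 1676 and 2386 (1.42-fold lower) on the next and 97.5 and 64.2 on a dim one. The zinc-induced metallothionein genes Mt1 and Mt2 had signals of 371 and 393 and of 107 and 79.3. The transferrin receptor gene Tfrc gave 1783 and 1585. Of the amino acid response genes, Atf4 gave 1255 and 1438 on the brightest probe set but was higher on the others (308 and 258, and 100.5 and 18.8). Asns, which makes asparagine, gave 287 and 214, and Ddit3 189.1 and 319, while Trib3, Chac1 and Eif2ak4 were below the floor on both arrays.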

How the data were processed

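Total RNA of GFP-positive and GFP-negative CD4+ T cells of DEREG mice was measured on 2 Affymetrix arrays, 1 per group, each placed by its title. The deposited values are 1 linear signal intensity per probe set, which the authors computed with MAS5 (named in the submitters' processing notes, without version or detection calls). Equal 2% trimmed means show that the arrays were already scaled, and no scaling was added. Probe sets were named through the platform annotation: 34958 of 45101 had 1 symbol, 932 several and 9211 none. Gene identifiers matched the reference table for 34754 and altered 0 symbols.

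A gene was represented by its brightest member probe set (mean log2 signal over both arrays). Signals under the floor of 67.32, the 90th percentile of 112 probe sets of 62 tissue-restricted genes, were raised to it. The lowest member signal was 107, so the floor touched no member. Where 1 signal of another gene was below it, the fold is written as at least N-fold. Brightness chose which probe sets and genes to show and is not read as a gene's level. Substrate classes followed the Slc family number, except for Slc43a3, Slc5a6, Slc8b1 and symbols that name no carrier. Named genes were those past 2-fold, the 4 brightest and 4 most different of each class, and those with probe sets more than 1 log2 unit apart, and further members and probe sets are named to account for all. The genes past 1.5-fold are named to give that count. The members and lists were chosen with earlier results of these data known. Steps were tested on simulated data with planted changes well past 2-fold, which says nothing about differences of 1.5-fold. With 1 array per group no test was run, and the arrays' number limits the precision. Python 3.11.15, numpy 2.4.6, pandas 2.3.3, statsmodels 0.14.6 and matplotlib 3.10.9 were used.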

Additional observations from a re-analysis of the deposited data

How the results depend on the processing

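No paired analysis was possible because each group holds 1 array. Of the 11 genes at least 1.5-fold apart, 9 stayed past 1.5-fold with quantile normalization (Slc43a3 and Slc7a1 did not) and 10 with loess (Slc7a1 did not). With no floor, or without probe sets ending in _x_at or _s_at, no value of the 11 could move, and with the floor doubled only the values of Slc35e3 and Slc39a9 could. Averaging member probe sets could move only Slc7a6, which was lost, and Slco3a1, the 2 with several. With the mean of all probe sets of a gene, dim ones included, 4 of the 11 stayed (lost were Slc22a5, Slc38a9, Slc39a6, Slc39a9, Slc6a6, Slc7a1 and Slc7a6), the counts became 3 higher and 2 lower, and the median became 0.0018 (amino acids -0.0042, organic ions and vesicle transporters -0.025). Slc35e3 and Slc43a3 have no further probe set and could not move there. Probe sets below the floor on both arrays count as no difference in that mean and shrink it. With a threshold of 100 in place of 200 there were 125 genes, 2 at least 2-fold higher and 1 lower, 20 and 11 past 1.5-fold, 56 higher and 69 lower in all, and a median for vitamins, lipids and choline of -0.0089. With 400 there were 36 genes, 0 past 1.5-fold higher, 12 higher and 24 lower in all, and a median of -0.17 (inorganic ions -0.62, mitochondrial carriers -0.14, nucleosides and nucleotide sugars -0.17, organic ions -0.51, vitamins, lipids and choline 0.0051 from 1 gene). Requiring 200 on both arrays left 58 genes, 2 past 1.5-fold higher, 19 higher in all, and a median of -0.15 (inorganic ions -0.40, mitochondrial carriers -0.14, nucleosides and nucleotide sugars -0.049). The class medians of mitochondrial carriers and of nucleosides and nucleotide sugars thus changed sign with the threshold, and that of all 75 genes lay within 0.1 of 0 in the main analysis; the cause was not tested.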
